A study of Mus musculus with 32 samples.

Results

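The miR-99, miR-100 and miR-125 families comprised 5 mature miRNAs, miR-99a, miR-99b, miR-100, miR-125a-5p and miR-125b-5p. They were chosen by name, as the rows of the Affymetrix and Febit value tables that carry exactly these names, a rule that uses no measured value. All 5 were on both arrays, where they were 5 of 608 shared miRNAs, and the study listed all of them as present on both platforms, so that all 5 were among the 485 miRNAs tested. The RNA came from the mouse ES cell clone αPIG44, in which the cardiac α-MHC promoter drives puromycin resistance and EGFP, and every sample carries this transgene. Day 0 is the undifferentiated clone, grown on feeder cells and kept without them on gelatin before RNA was taken. Days 12, 19 and 26 are Cor.At cardiomyocytes of the same clone, made through embryoid bodies and selected with puromycin, which day 0 cells were not. There were 2 cultures (a and b) at each of the 4 days, and each of the 8 RNA samples was hybridized to both platforms. Since a single clone was used, the spread between cultures does not include differences between ES cell lines.

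A miRNA is a short RNA that guides the silencing complex to messenger RNAs, mainly through its seed, bases 2 to 8 counted from the 5′ end. The miR-125 miRNAs are the mammalian relatives of lin-4, which together with let-7 sets the timing of larval development in Caenorhabditis elegans, and miR-99 and miR-100 belong to one of the oldest miRNA families of animals. In mammals the genes of these families lie side by side with let-7 genes, and miR-125 and let-7 both repress Lin28, an RNA-binding protein of ES cells that blocks let-7 maturation.

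The mature sequences show which members a probe or a target site could hardly tell apart. They were taken from RefSeq (GRCm38.p6), where all 5 members were matched, with the array names miR-99a, miR-99b and miR-100 read as the 5p arms. The seed is in capitals.
miR-99a: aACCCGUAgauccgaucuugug
miR-100: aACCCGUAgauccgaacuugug
miR-99b: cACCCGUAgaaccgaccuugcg
miR-125b-5p: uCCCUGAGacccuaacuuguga
miR-125a-5p: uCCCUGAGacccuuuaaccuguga
miR-351: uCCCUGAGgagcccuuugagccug

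The first 3 share 1 seed, and no other mature name among the 1679 in the table carries it. miR-99a and miR-100 differ at 1 of 22 positions, U16A, with positions counted from 1 at the 5′ end, miR-99a first and miR-100 second. miR-99b differs from miR-99a at 4 positions (A1C, U11A, U16C and U21C, miR-99a first). The miR-125 seed is found in 5 mature names, among them miR-351, which is shown because it was on both arrays as well. miR-125a-5p (24 bases) and miR-125b-5p (22 bases) are identical over the first 13 bases. Compared position by position without gaps, they are identical at 15 of 22 positions. A probe for miR-99a and a probe for miR-100 may therefore each bind both miRNAs, and their values may not be fully separate measurements. Such binding was not tested, for this pair or for miR-125a-5p and miR-125b-5p.

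The hairpins fall into 3 clusters, all on the plus strand (GRCm38.p6). Mir100, Mirlet7a-2 and Mir125b-1 span 50578 bases at chr9:41531425-41582002, inside the long non-coding RNA gene Mir100hg. Mir99a, Mirlet7c-1 and Mir125b-2 span 47408 bases at chr16:77598936-77646343, and no gene of the RefSeq table spans them. Mir99b, Mirlet7e and Mir125a are packed into 692 bases at chr17:17830188-17830879, within the bounds of the protein-coding gene Spaca6. The mature miR-125b-5p is made from 2 hairpin genes, on chromosomes 9 and 16, and its value cannot be assigned to one of them.

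In the differentiated cells all 5 members stood above the ES cells by day 26 on both platforms. The chromosome 17 pair, miR-99b and miR-125a-5p, was raised by 2.44 to 3.10 on the log2 scale at day 12 and showed no further called change on either platform. miR-99a, miR-100 and miR-125b-5p were called higher at day 26 than at day 12 on the Affymetrix array, whereas on Febit only miR-100 was, and there the difference of miR-125a-5p (1.58) was as large as that of miR-99a (1.49). Whether the members differ from each other in this was not tested. Values are log2 values after VSN (variance stabilization, a scale that behaves like log2 well above background and is nearly linear close to it). Fold changes are differences of day means with the SE of limma, n = 2 per day, and adjusted p-values are limma's after Benjamini-Hochberg correction over the 485 miRNAs. Levels were not compared between different miRNAs, as each probe has its own scale. In RNA from whole cultures, a larger share of cells with a miRNA and more of it per cell cannot be told apart.

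**Figure D1:**
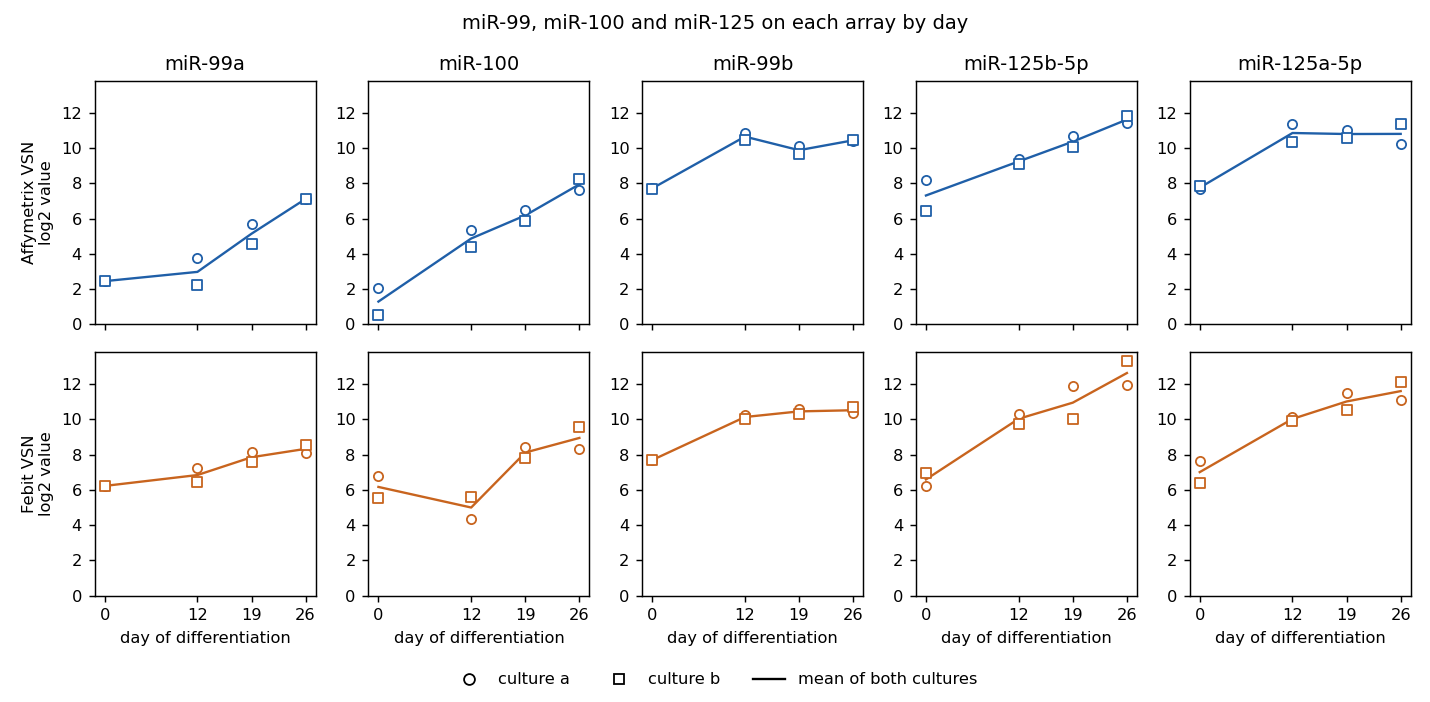
Deposited log2 VSN values of the 5 miRNAs (vertical axis) at days 0, 12, 19 and 26 (horizontal axis) on the Affymetrix arrays (top, blue) and the Febit arrays (bottom, orange). Circles are culture a, squares culture b, and lines join the means of both; miR-99b and miR-125a-5p step up by day 12, and on the Affymetrix array miR-99a, miR-100 and miR-125b-5p are highest at day 26.

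miR-99b, the first gene of the chromosome 17 cluster, had Affymetrix values of 7.76 and 7.67 at day 0, 10.86 and 10.44 at day 12, 10.09 and 9.66 at day 19, and 10.41 and 10.47 at day 26 (cultures a and b). On the Febit array it read 7.70 and 7.68, 10.23 and 10.03, 10.58 and 10.32, and 10.33 and 10.70 at the same days. Every differentiated culture was above both ES cell cultures on both platforms, and the later days overlapped or lay close together. The rise at day 12 was 2.94 ± 0.43 on Affymetrix (adjusted p = 0.00025) and 2.44 ± 0.57 on Febit (adjusted p = 0.023), and at day 26 it was 2.73 ± 0.43 (adjusted p = 0.00031) and 2.83 ± 0.57 (adjusted p = 0.0093). Between days 12 and 26 miR-99b differed by -0.21 ± 0.43 on Affymetrix and 0.38 ± 0.57 on Febit, and neither passed the test (adjusted p = 0.83 and 0.69). Quantile normalization of the VSN values ended the Affymetrix calls at day 19 (0.86, adjusted p = 0.12) and day 26 (0.90, adjusted p = 0.094). It also ended the Febit calls at all 3 days (1.45 at day 26, adjusted p = 0.25). The Febit call at day 26 was lost as well with non-VSN values by title (1.24, adjusted p = 0.087), but it was kept with 2 of those arrays exchanged. With RMA in place of VSN the Affymetrix rise at day 26 was 0.59 (adjusted p = 0.039), and miR-99b fell by 0.83 between days 12 and 26 (adjusted p = 0.039), where RMA called 4.33% of all tested miRNAs lower.

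miR-125a-5p, at the other end of the same cluster, had Affymetrix values of 7.67 and 7.84 at day 0, 11.34 and 10.36 at day 12, 11.02 and 10.57 at day 19, and 10.25 and 11.35 at day 26. Its Febit values were 7.62 and 6.39, 10.15 and 9.90, 11.48 and 10.54, and 11.10 and 12.11. The ES cells were lowest on both platforms, and among the later days the groups overlapped on Affymetrix, whereas on Febit both day 12 values lay below those of days 19 and 26. The rise at day 12 was 3.10 ± 0.53 on Affymetrix (adjusted p = 0.00067) and 3.02 ± 0.70 on Febit (adjusted p = 0.023). At day 26 it was 3.05 ± 0.53 (adjusted p = 0.00059) and 4.59 ± 0.70 (adjusted p = 0.0021). From day 12 to day 26 the difference was -0.05 ± 0.53 on Affymetrix (adjusted p = 0.97) and 1.58 ± 0.70 on Febit (adjusted p = 0.17). The Affymetrix call at day 26 was lost with RMA (0.88, adjusted p = 0.16) and after quantile normalization of the VSN values (1.06, adjusted p = 0.14).

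miR-125b-5p, a miRNA known from neurons and blood stem cells, had Affymetrix values of 8.21 and 6.41 at day 0, 9.40 and 9.09 at day 12, 10.67 and 10.06 at day 19, and 11.43 and 11.80 at day 26. On Febit the values were 6.23 and 6.95, 10.31 and 9.75, 11.90 and 9.99, and 11.95 and 13.31. On the Affymetrix array no day overlapped with another, and the ES cell cultures differed by more than those of any later day. The Affymetrix rise was 1.93 ± 0.58 at day 12 (adjusted p = 0.024), 3.05 ± 0.58 at day 19 (adjusted p = 0.0015) and 4.31 ± 0.58 at day 26 (adjusted p = 8.98e-05). The Febit rise was 3.44 ± 0.79 (adjusted p = 0.023), 4.35 ± 0.79 (adjusted p = 0.0096) and 6.03 ± 0.79 (adjusted p = 0.0011). The size at day 26 depended on the normalization, with 2.37 by RMA and 4.03 by Febit non-VSN values. It was 2.73 from the deposited raw Febit features after log2 and quantile normalization, and the rise was called in each of these. The Affymetrix call at day 19 was lost with RMA (1.63, adjusted p = 0.10) and after quantile normalization (2.06, adjusted p = 0.055). Between days 12 and 26 it rose by 2.37 ± 0.58 on Affymetrix (adjusted p = 0.044), a call lost without any 1 of the day 12 or day 26 arrays (adjusted p from 0.11 to 0.21), with RMA (1.72, adjusted p = 0.17), with arrays centred on their median (2.40, adjusted p = 0.057) and after quantile normalization (1.58, adjusted p = 0.30), and the Febit difference of 2.59 ± 0.79 did not pass (adjusted p = 0.066). The Affymetrix call at day 12 rested on day 0 b, without which the difference was 1.04 (adjusted p = 0.19), and it was also lost without day 12 a (adjusted p = 0.13), without day 12 b (adjusted p = 0.056), with RMA (0.65, adjusted p = 0.53), with centring (1.17, adjusted p = 0.16) and after quantile normalization (1.17, adjusted p = 0.27). The Febit call at day 12 was lost with raw features after quantile normalization (1.11, adjusted p = 0.084).

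miR-99a, of the chromosome 16 cluster, stayed low through day 12 on the Affymetrix array, with values of 2.46 and 2.44 at day 0 and 3.74 and 2.22 at day 12. It then reached 5.71 and 4.57 at day 19 and 7.12 and 7.11 at day 26. Days 0 and 12 overlapped, and days 19 and 26 each stood clear of the earlier days. The day 12 b value lay within the Affymetrix range of miR-10a (0.60 to 2.43), which the study listed as absent, and both day 0 values lay just above it. VSN is nearly linear so close to background. The Affymetrix differences from day 0 were 0.53 ± 0.57 at day 12 (adjusted p = 0.57), 2.69 ± 0.57 at day 19 (adjusted p = 0.0033) and 4.66 ± 0.57 at day 26 (adjusted p = 3.93e-05). From day 12 to day 26 miR-99a rose by 4.14 ± 0.57 on the Affymetrix array (adjusted p = 0.0014), and by 2.38 with RMA (adjusted p = 0.012). The difference at day 12 turned to -0.24 when each Affymetrix array was centred on its median. With RMA the day 26 difference from day 0 was 2.61.

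On the Febit array miR-99a read 6.23 and 6.22 at day 0, 7.22 and 6.46 at day 12, 8.13 and 7.57 at day 19, and 8.10 and 8.55 at day 26. The order of the days was the same, over a narrower span. Only day 26 was called against day 0, with 2.10 ± 0.61 (adjusted p = 0.048), and the difference between days 12 and 26 was 1.49 ± 0.61 (adjusted p = 0.14). Leaving out any 1 of the 8 arrays took the day 26 call away, with differences of 1.88 to 2.32. So did Febit non-VSN values (0.70, adjusted p = 0.43 by title and 0.22 with 2 arrays exchanged) and raw features after quantile normalization (0.34, adjusted p = 0.23). The call was lost too with centring (2.02, adjusted p = 0.068) and with quantile normalization of the VSN values (1.54, adjusted p = 0.22).

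miR-100, of the chromosome 9 cluster, had Affymetrix values of 2.08 and 0.51 at day 0, 5.35 and 4.39 at day 12, 6.51 and 5.86 at day 19, and 7.64 and 8.25 at day 26, and no day overlapped with another. Its day 0 values lay within or below the Affymetrix range of miR-10a (0.60 to 2.43), which the study listed as absent. VSN is nearly linear so close to background, and with RMA the day 26 rise was 3.77. After VSN miR-100 rose by 3.58 ± 0.60 at day 12 (adjusted p = 0.0006), 4.89 ± 0.60 at day 19 (adjusted p = 5.04e-05) and 6.65 ± 0.60 at day 26 (adjusted p = 3.35e-06), the last of which was the largest Affymetrix rise among the 5 members. From day 12 to day 26 it rose by a further 3.07 ± 0.60 (adjusted p = 0.011), a call that was lost without day 12 b (2.59, adjusted p = 0.10) or without day 26 b (2.77, adjusted p = 0.072), and after quantile normalization (2.91, adjusted p = 0.062).

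The Febit array gave miR-100 another course. Its values were 6.81 and 5.53 at day 0, 4.38 and 5.62 at day 12, 8.44 and 7.80 at day 19, and 8.33 and 9.56 at day 26. Day 12 overlapped with day 0, and days 19 and 26 were above both. The difference from day 0 was -1.17 ± 0.76 at day 12 (adjusted p = 0.35), 1.95 ± 0.76 at day 19 (adjusted p = 0.16) and 2.78 ± 0.76 at day 26 (adjusted p = 0.039). Against day 12, miR-100 rose by 3.12 ± 0.76 at day 19 (adjusted p = 0.026) and 3.95 ± 0.76 at day 26 (adjusted p = 0.018), and the day 26 call was lost without any 1 of the day 12 or day 26 arrays (3.32 to 4.57, adjusted p from 0.075 to 0.11), as the day 19 call was without any 1 of the day 12 or day 19 arrays. The day 26 call against day 0 was lost without day 26 b (2.16, adjusted p = 0.25), without day 26 a (3.40, adjusted p = 0.077), without day 0 b (2.14, adjusted p = 0.11), and without day 19 a or day 19 b (2.78, adjusted p = 0.080 for each). It was lost too with non-VSN values (1.17, adjusted p = 0.37 by title and 0.067 with 2 arrays exchanged). The same held for raw features after quantile normalization (0.58, adjusted p = 0.084) and for quantile normalization of the VSN values (2.31, adjusted p = 0.086). The later call against day 12 was lost with the same non-VSN values (0.93 and 1.55, adjusted p = 0.96 and 0.054) and with raw features after quantile normalization (0.70, adjusted p = 0.089).

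**Figure D2:**
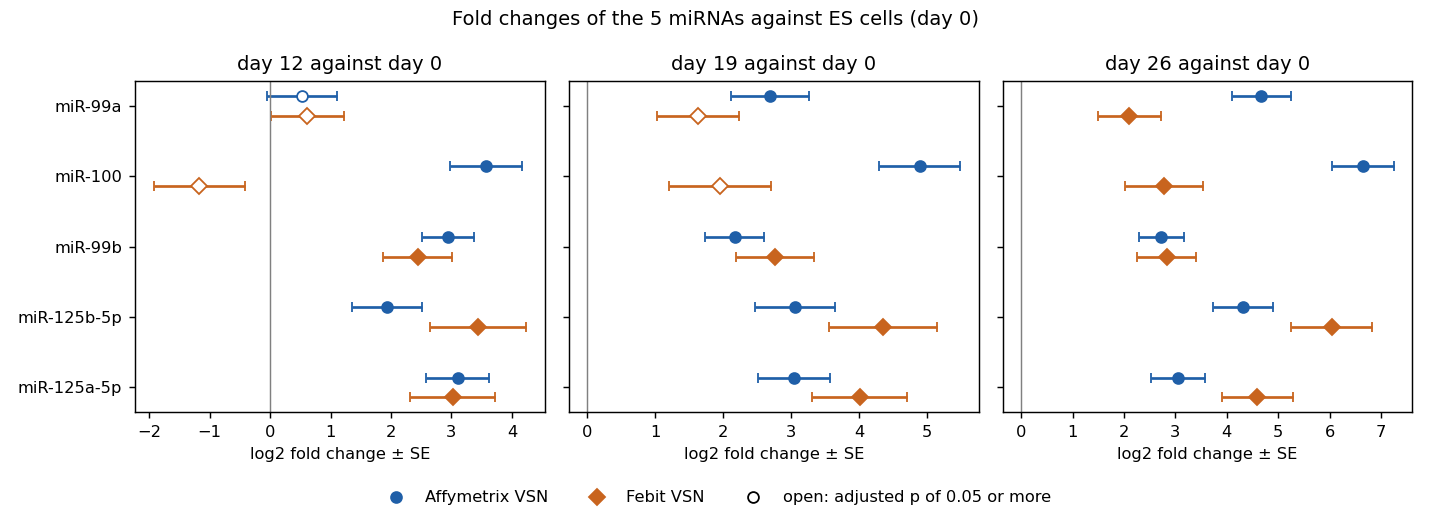
Log2 fold change against day 0 ± SE (horizontal axis) for the 5 miRNAs (vertical axis) at days 12, 19 and 26, with Affymetrix VSN as circles and Febit VSN as diamonds (n = 2 cultures per day). Open symbols have an adjusted p of 0.05 or more; miR-99b and miR-125a-5p lie close to each other on both platforms at day 12, where miR-100 lies at 3.58 on Affymetrix and -1.17 on Febit.

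By counts, on the Affymetrix array 4 of the 5 members were called higher at day 12, where 26.2% of all tested miRNAs were called higher. At day 19 all 5 were called higher (22.7% of all tested), and at day 26 all 5 again (29.5%). On the Febit array 3 of 5 were called higher at day 12 (5.77% of all tested), 3 of 5 at day 19 (5.36%) and all 5 at day 26 (10.5%). No member was called lower than in ES cells on either platform at any day. The median fold change of the 5 members at day 26 was 4.31 on Affymetrix and 2.83 on Febit, against a median over all tested miRNAs of 0.41 and 0.02. The 3 comparisons share their day 0 arrays. The excess of higher calls over all Affymetrix miRNAs depended on the scaling, with 127 higher and 30 lower at day 12, but 81 higher and 73 lower once each array was centred on its median.

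On the Febit array the number of members called changed when single arrays were left out. The share of all tested miRNAs called in those fits is not given, so the counts in this paragraph have no background beside them. At day 12 no member was called without day 12 a or without day 12 b, and 1 was called without day 19 a or day 19 b, which enter through the shared spread. At day 19 no member was called without day 19 a. At day 26 the number called was 2 without day 26 a or day 26 b, and 3 without day 0 b, day 19 a or day 19 b. On Affymetrix all 5 were called at days 19 and 26 whichever array was left out, and 3 or 4 at day 12.

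Of the comparisons among differentiated days, day 26 against day 12 called 3 of 5 members higher on Affymetrix (3.92% of all tested) and 1 of 5 on Febit, miR-100 (9.48%). Day 19 against day 12 called no member on Affymetrix (0.412% of all tested were called higher) and miR-100 alone on Febit (10.5%). Day 26 against day 19 called no member, and no miRNA at all, on either platform (limma, 0% of all tested). RMA called 4 miRNAs there. At an unadjusted p under 0.05 the VSN values listed 73 miRNAs on Affymetrix and 23 on Febit. With values called in all 4 data sets (VSN on both platforms, Affymetrix RMA, and Febit non-VSN by title), miR-99b and miR-125a-5p were called at days 12 and 19 and miR-125b-5p at day 26, and 3.71%, 3.3% and 4.74% of all tested miRNAs were called higher in this way.

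The Febit non-VSN arrays titled day 12 a and day 19 b ranked the 710 miRNAs as the unnormalized array of the other title did (Spearman rho of 1, against 0.198 with their own), so that their titles appear exchanged in that data set, whereas every Febit VSN array ranked as its own title. With these 2 arrays exchanged, miR-99b was also called in all 4 data sets at day 26 (6.19% of all tested miRNAs) and no member was lost.

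The unnormalized Febit intensities show how far each member stood above the bulk of its array. Each array carried 8 features per miRNA, of which 7 or 8 were used for each member, and the median of a member's features was divided by the median of all 710 miRNAs on that array, which lies near background. In the ES cells all 5 members lay within 0.93 to 1.14 times this median. miR-125b-5p had median feature intensities of 932 and 968 at day 0, 2105 and 1897 at day 12, 5217 and 1800 at day 19, and 6610 and 7778 at day 26. Over the array median these were 5.53 and 1.94 times at day 19 and 6.66 and 34.1 times at day 26, so that the cultures of both days differed widely on this scale.

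miR-125a-5p had intensities of 1020 and 920, 1977 and 2005, 4121 and 2249, and 4049 and 3485, and miR-99b had 1028 and 1060, 2041 and 2113, 2597 and 2045, and 2737 and 1424. Both were at about 2 times the array median at day 12 (2.04 in both cultures for miR-125a-5p, and 2.11 and 2.15 for miR-99b). miR-99a had 932 and 908, 1032 and 968, 1156 and 1008, and 1252 and 456, and miR-100 had 960 and 868, 872 and 912, 1232 and 1040, and 1320 and 744. On the arrays other than day 26 b, miR-99a never exceeded 1.26 times the array median and miR-100 never exceeded 1.33 times. The Febit VSN differences of these 2 miRNAs come from intensities near the bulk of the array.

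The Febit array of day 26 b stood apart, with a median intensity of 228 against 928 to 992 on the other 7 arrays. There the ratios were 34.1 for miR-125b-5p, 15.3 for miR-125a-5p, 6.25 for miR-99b, 3.26 for miR-100 and 2.00 for miR-99a. Without this array, 2 of the 5 members, miR-125a-5p and miR-125b-5p, kept their Febit VSN call at day 26 against day 0, and the other differences were 2.64 for miR-99b (adjusted p = 0.097, and 0.054 without day 26 a instead), 2.16 for miR-100 (adjusted p = 0.25) and 1.88 for miR-99a (adjusted p = 0.22).

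**Figure D3:**
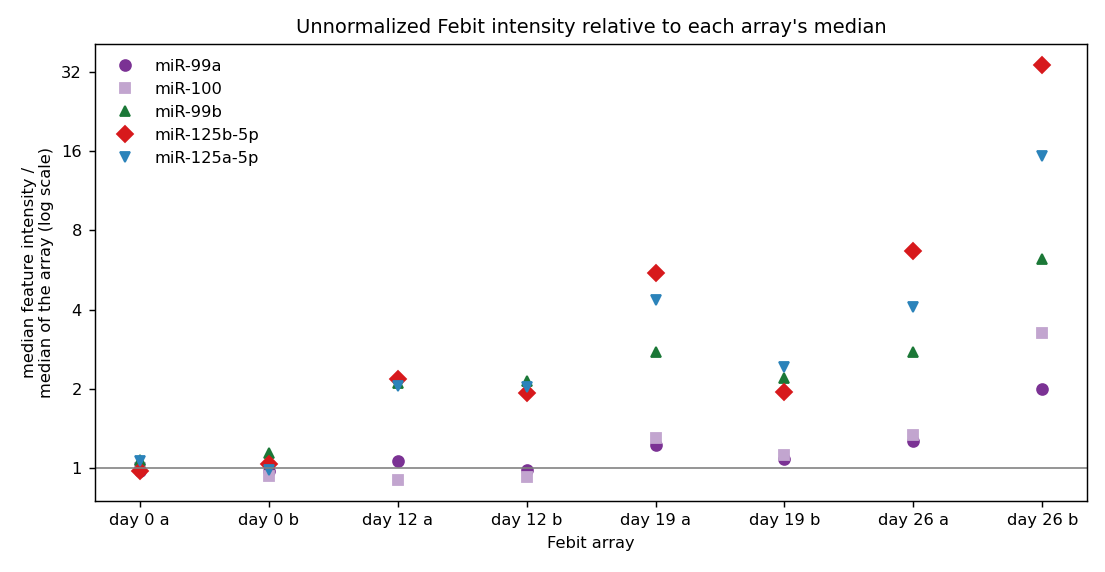
Median unnormalized intensity of the features of each member on each Febit array, divided by the median of that array (vertical axis, log scale), for the 8 arrays (horizontal axis). All members start near 1 at day 0; miR-125b-5p, miR-125a-5p and miR-99b are near 2 at day 12, and the highest ratios are on the array of day 26 b, whose own median was 228.

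The 2 platforms were compared within each culture, since the same RNA was on both, by taking the Affymetrix minus the Febit VSN value of each of the 8 cultures and testing the change of this difference from day 0 with limma. Among the 5 members a difference passed for miR-100 alone. Its Affymetrix fold change exceeded that on Febit by 4.74 ± 0.91 at day 12 (adjusted p = 0.0029) and 3.87 ± 0.91 at day 26 (adjusted p = 0.014), and by 2.94 ± 0.91 at day 19, which did not pass (adjusted p = 0.057). Such a difference was called for 19.2% of all tested miRNAs at day 12, 7.84% at day 19 and 9.28% at day 26. The day 26 call was lost without day 26 a (3.56, adjusted p = 0.16) or without day 26 b (4.19, adjusted p = 0.069), and the day 19 difference was called without day 12 a or day 12 b (2.94, adjusted p = 0.040 for each).

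For the other members no platform difference passed, which does not show that the platforms gave the same value. miR-99a came nearest at day 26, with 2.56 ± 0.84 more on Affymetrix (adjusted p = 0.064). For miR-125b-5p the difference was -1.51 ± 0.97 at day 12 and -1.73 ± 0.97 at day 26, that is, more on Febit (adjusted p = 0.32 and 0.35). For miR-125a-5p it was 0.08 ± 0.86 at day 12 and -1.55 ± 0.86 at day 26 (adjusted p = 0.97 and 0.35), and for miR-99b it lay between -0.59 and 0.50 at the 3 days.

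The let-7 miRNA of each cluster can be read beside its neighbours. let-7 miRNAs repress cell cycle and growth genes and are known to be low in ES cells. let-7e, between miR-99b and miR-125a-5p on chromosome 17, had Affymetrix values of 6.81 and 5.95 at day 0, 11.30 and 11.18 at day 12, 11.66 and 11.84 at day 19, and 11.93 and 11.98 at day 26. It rose by 4.86 ± 0.45 at day 12 (adjusted p = 9.52e-06), and by 5.58 ± 0.45 at day 26 (adjusted p = 1.75e-06), with 0.72 ± 0.45 between these days (adjusted p = 0.42). On Affymetrix the 3 products of this cluster were all raised by day 12, with no called change between days 12 and 26. On Febit let-7e read 6.32 and 7.34, 8.05 and 6.65, 8.88 and 8.30, and 9.57 and 10.76, and was called at day 26 (3.33 ± 0.74, adjusted p = 0.016) but not at day 12 (0.51 ± 0.74, adjusted p = 0.71), and it rose by 2.82 ± 0.74 between days 12 and 26 (adjusted p = 0.041).

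let-7a, whose hairpin Mirlet7a-2 lies next to Mir100 but which is also made from a hairpin elsewhere, rose on Affymetrix by 4.22 ± 0.44 at day 12 (adjusted p = 1.97e-05) and 7.08 ± 0.44 at day 26 (adjusted p = 3.26e-07), and by 2.86 ± 0.44 between them (adjusted p = 0.0029). On Febit let-7a read 6.66 and 6.22 at day 0, 4.75 and 6.31 at day 12, 8.52 and 7.30 at day 19, and 9.58 and 11.05 at day 26. Like miR-100 on that array, it had its lowest value in day 12 a, with a difference from day 0 of -0.91 ± 0.79 (adjusted p = 0.50), and it was called higher at day 26 (3.88 ± 0.79, adjusted p = 0.0093).

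let-7c, made from Mirlet7c-1 beside Mir99a and from Mirlet7c-2 on chromosome 15, differed from day 0 on Affymetrix by 1.16 ± 0.50 at day 12, which did not pass (adjusted p = 0.10), and rose by 3.99 ± 0.50 at day 19 (adjusted p = 6.15e-05) and 5.09 ± 0.50 at day 26 (adjusted p = 7.01e-06). Between days 12 and 26 it rose by 3.92 ± 0.50 (adjusted p = 0.00105), so that on Affymetrix both let-7c and miR-99a were called at days 19 and 26 and not at day 12. On Febit let-7c was called at day 26 only (4.97 ± 1.02, adjusted p = 0.0093), and its values of 3.41 and 5.90 at day 0 and 7.03 and 4.37 at day 19 show a wide spread between cultures. Over the whole let-7 family with miR-98, 6 of 9 were called higher on Affymetrix at day 12 and 9 of 9 at day 26, and on Febit 0 of 9 and 8 of 9, where 26.2%, 29.5%, 5.77% and 10.5% of all tested miRNAs were called higher.

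**Figure D4:**
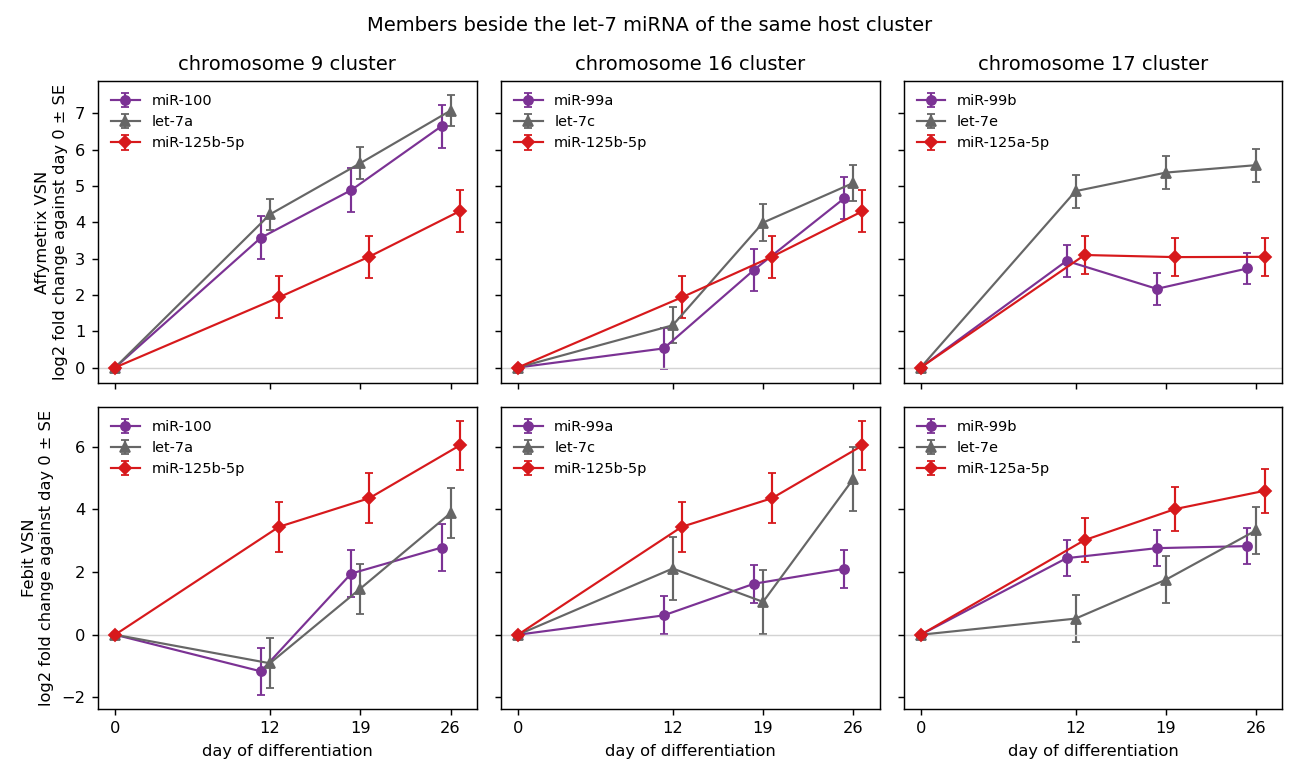
Log2 fold change against day 0 ± SE (vertical axis) at each day (horizontal axis) for the members and the let-7 miRNA of the 3 host clusters, on Affymetrix VSN (top) and Febit VSN (bottom); points of one day are set slightly apart. miR-125b-5p is drawn in both clusters that encode it, and on Affymetrix the chromosome 17 miRNAs differ by at most 0.72 between days 12 and 26, while those of chromosomes 9 and 16 are higher at day 26.

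The opposite strands of the same hairpins were followed where an array held them. Of 7 listed, miR-99a* and miR-100* were on neither array, and 5 were tested. miR-99b*, the other strand of the Mir99b hairpin (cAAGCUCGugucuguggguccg, seed in capitals, shown because it shares no seed with miR-99b), had Affymetrix values of 1.62 and 2.97 at day 0, 6.56 and 6.14 at day 12, 5.64 and 5.79 at day 19, and 6.16 and 5.59 at day 26. It rose by 4.05 ± 0.52 at day 12 (adjusted p = 9.46e-05) and by 3.58 ± 0.52 at day 26 (adjusted p = 0.00017), and its day groups after day 0 overlapped or lay close, as those of miR-99b did. On Febit miR-99b* read 6.66 and 5.60, 6.17 and 6.08, 5.23 and 6.17, and 5.52 and 6.41, with no called difference (-0.01 ± 0.67 at day 12). The study lists miR-99b* as present on the Affymetrix array only.

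miR-125b-3p, which the tables do not assign to one of the Mir125b hairpins, had Affymetrix values of 2.30 and 2.47 at day 0 and 4.11 and 4.14 at day 26. It rose by 1.60 ± 0.47 at day 19 (adjusted p = 0.020) and 1.74 ± 0.47 at day 26 (adjusted p = 0.011), and was not called on Febit. miR-125a-3p, miR-125b* and let-7c-1* were not called against day 0 on either platform. Their Affymetrix differences at day 26 were 0.63 ± 0.53 for miR-125a-3p (adjusted p = 0.37), 1.32 ± 0.63 for miR-125b* (adjusted p = 0.12) and -0.57 ± 0.63 for let-7c-1* (adjusted p = 0.50).

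miR-351 carries the miR-125 seed and comes from chromosome X, where its hairpin belongs to the cluster of miR-322 and miR-503. On Affymetrix it read 4.88 and 3.69 at day 0, 11.95 and 11.45 at day 12, 11.05 and 11.22 at day 19, and 11.08 and 10.86 at day 26. The rise was 7.42 ± 0.50 at day 12 (adjusted p = 7.48e-07) and 6.68 ± 0.50 at day 26 (adjusted p = 1.26e-06), above that of miR-125a-5p and miR-125b-5p at the same days. On Febit miR-351 rose by 3.41 ± 0.72 at day 12 (adjusted p = 0.016) and 2.82 ± 0.72 at day 26 (adjusted p = 0.032), and the day 26 rise there was below the 4.59 of miR-125a-5p and the 6.03 of miR-125b-5p. These differences between miRNAs were not tested. The relatives miR-10a and miR-10b, which resemble miR-100 in sequence but carry another seed, were listed as absent on both platforms and were not tested. miR-10a stayed between 0.60 and 2.43 on the Affymetrix arrays of all days, and miR-10b between 1.18 and 1.94.

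**Figure D5:**
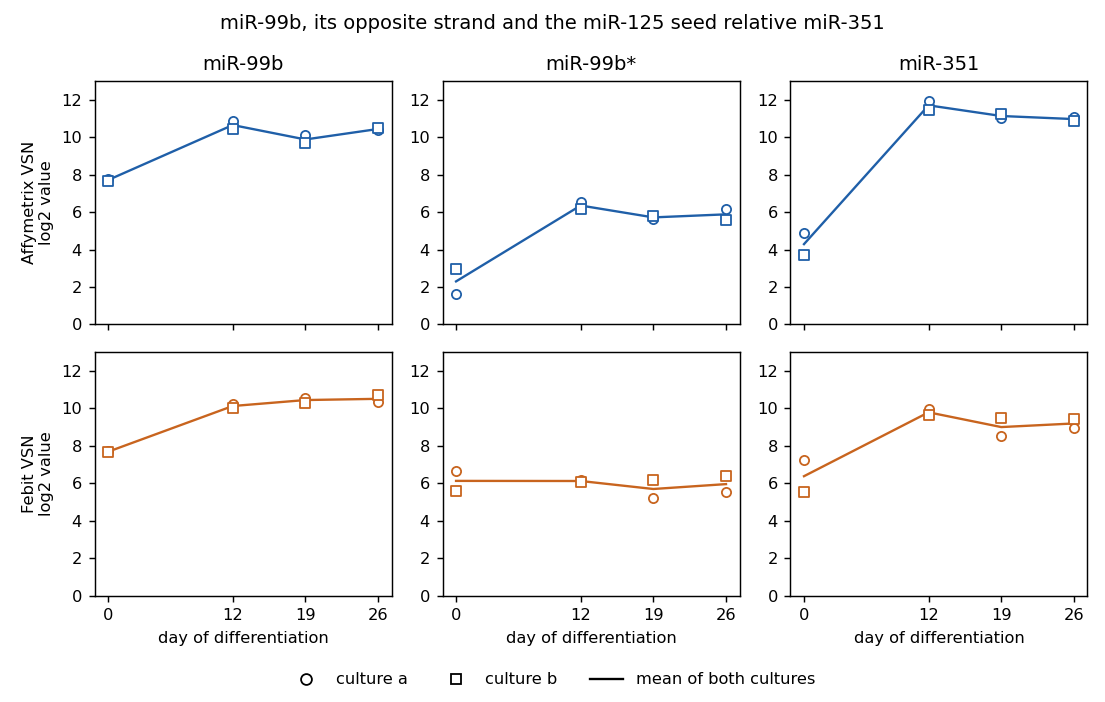
Deposited log2 VSN values (vertical axis) by day (horizontal axis) of miR-99b, of miR-99b* from the same hairpin, and of miR-351 on Affymetrix (top) and Febit (bottom), with circles for culture a, squares for culture b and lines joining the means. All 3 step up by day 12 on Affymetrix, whereas on Febit miR-99b* stays between 5.23 and 6.66.

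The miRNAs whose pattern was most like that of each member were found by the root mean square difference over the 16 VSN arrays, after each miRNA was centred on its mean per platform. The nearest to miR-100 among the tested miRNAs outside the families was let-7a (0.63), followed by miR-30a (0.67) and miR-542-5p (0.76). For comparison, the median distance of miR-100 to all other tested miRNAs was 2.17. The nearest to miR-99b were miR-103 (0.51), miR-28 (0.52) and miR-194 (0.53), with miR-125a-5p of the same cluster at 0.63 and a median of 1.39.

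miR-125a-5p was nearest to miR-26a (0.50), miR-125b-5p to miR-27b (0.72) and miR-99a to miR-206 (0.86). miR-99a and miR-100, which differ by 1 base, lay 1.17 apart, further than miR-99b from miR-125a-5p, which share neither seed nor family. The arrays behind each distance are the same 16, and these distances are a description of them.

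Markers of the cell types were read on the same arrays. Of 6 muscle miRNAs, 5 were called higher at day 26 on each platform, among them miR-1, the main miRNA of heart muscle (9.73 on Affymetrix and 7.20 on Febit), where 29.5% and 10.5% of all tested miRNAs were called higher. Of 7 ES cell miRNAs, from the cluster that runs from miR-290 to miR-295, 7 were called lower at day 26 on Affymetrix and 4 on Febit, where 10.3% and 2.27% of all tested miRNAs were called lower. Because fibroblasts also express miR-99, miR-100 and miR-125, their markers were read beside the members. Of the 4 fibroblast miRNAs, miR-199a-3p, miR-199a-5p, miR-199b and miR-214, 1 was called higher at day 26 on Affymetrix, miR-199b, with 4.28 and 2.99 at day 0 and 6.25 and 4.93 at day 26 (1.96, adjusted p = 0.017), a call lost with RMA (0.61, adjusted p = 0.38). The 4 had Affymetrix values between 2.39 and 6.50 at day 0, between 1.66 and 4.07 at day 12, between 1.44 and 4.47 at day 19 and between 2.87 and 6.25 at day 26. On Febit they lay between 5.20 and 9.89, between 6.20 and 12.04, between 3.69 and 8.35 and between 5.17 and 9.12 at the same days. The highest of these was miR-214, with 7.96 and 9.89 at day 0 and 12.04 and 9.85 at day 12 (2.02, adjusted p = 0.17), and miR-199a-3p was called lower at day 19 on Febit (-3.03, adjusted p = 0.014). No other difference of the 4 from day 0 was called on either platform. Of 2 endothelial miRNAs (miR-126-3p and miR-126-5p), of 2 from nervous tissue (miR-9 and miR-124, of which 1 was tested) and of 3 from blood (miR-142-3p, miR-223 and miR-451, of which 1 was tested), 0 were called higher at day 26 on either platform. The part of fibroblasts in the values of the members was not tested.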

How the data were processed

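For Affymetrix the authors deposited log2 values after RMA and after VSN, and for Febit log2 values after VSN and after background correction with quantile normalization (called non-VSN). The deposited Febit intensity values are unnormalized, with 8 features per miRNA. As an alternative, the median of these features was taken to log2 and quantile normalized over arrays (called raw features after quantile normalization). The study's methods name R and Bioconductor, and versions of RMA and affy were not given in the sources used here. There were 32 arrays, 8 per data set, grouped by the day in their titles. The culture text of some records differs from the paper, and titles were followed. The VSN values were the main values. Linear models with 1 mean for each day were fitted by limma 3.58.1 under R 4.3.3 (4 residual degrees of freedom, empirical Bayes, Benjamini-Hochberg, adjusted p under 0.05) over the 485 miRNAs on both arrays that the study lists as present on at least 1 platform. With 2 arrays against 2, an exact permutation test cannot give a two-sided p below 0.333, so none was used. The scripts were tested on simulated data. The other normalizations, centring, quantile normalization, other miRNA sets, limma-trend, a replicate block and leaving out each array were tried. All 5 members are named, with their cluster products, seed relatives, the 3 nearest miRNAs each and the marker lists. The rule for the members uses names alone, but these families and the lists were chosen with earlier results of these data known. Sequences are from RefSeq GRCm38.p6. Figures were drawn with matplotlib 3.10.9. The number of arrays limits the precision, and nothing in the arrays gives a depth.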

Additional observations from a re-analysis of the deposited data

Results flagged for a closer look

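The fold change of miR-100 differed between the 2 platforms although both measured the same RNA. At day 12 against day 0 the Affymetrix fold change exceeded the Febit one by 4.74 on the log2 scale (3.58 against -1.17), and at day 26 by 3.87 (6.65 against 2.78), both past the threshold in limma's test of the difference within cultures (adjusted p = 0.0029 and 0.014). On the unnormalized Febit arrays miR-100 lay at 0.90 and 0.93 times the array median at day 12 and at 1.33 and 3.26 times at day 26. The ratio of 3.26 was on array day 26 b, where miR-100 read 744 and the array median was 228, against 928 to 992 on the others. The part of these intensities in the platform difference was not tested. Such a platform difference was called for 19.2% of all tested miRNAs at day 12 and 9.28% at day 26. The day 26 difference of miR-100 was 3.56 without day 26 a and 4.19 without day 26 b, and it was called in neither case.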

How the results depend on the processing

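Of 480 repeats of the members' fold changes against day 0 under the alternatives, 416 kept their direction and side of the threshold, 61 kept the direction but lost the call, and 3 turned. Those were miR-99a at day 12 on Affymetrix, at -0.24 with arrays centred on their median and from -0.24 to 1.29 with 1 array left out, and miR-100 at day 12 on Febit, at 0.25 with non-VSN values by title. With the non-VSN arrays titled day 12 a and day 19 b exchanged, miR-100 did not turn, with means of 7.61 at day 12 and 7.98 at day 0. None of the 3 turned differences was called, and the cause was not tested. RMA gave a smaller fold change than Affymetrix VSN for each member at each of the 3 days, from 0.23 to 3.77. Centring moved the Affymetrix median over all tested miRNAs from 0.34 to -0.43 at day 12 and from 0.41 to -0.33 at day 26, and quantile normalization moved it to -0.10 at both days. All called miRNAs then split into 105 higher and 115 lower at day 26 on Affymetrix after centring, against 143 and 50 before, and on Febit at day 26 into 29 and 16 after quantile normalization, against 51 and 11.

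After quantile normalization, 3 members were called on Affymetrix at day 19 and at day 26 against day 0, and 1 at day 26 against day 12. Of all tested miRNAs, 87, 99 and 9 were called higher in these Affymetrix comparisons, against 110, 143 and 19 before quantile normalization. On Febit 2 members were called at day 26 against day 0, where 29 of all tested miRNAs were called higher, against 51 before. With Febit non-VSN values the count of members at day 26 against day 0 was 2 by title (5.36% of all tested miRNAs were called higher) and 3 with the 2 arrays exchanged (7.63%). With raw features after quantile normalization this count was 3. In the later Febit comparisons the count was 0 for day 26 against day 12 (by title and with raw features after quantile normalization) and 0 for day 19 against day 12 (also when exchanged). By title 0% of all tested miRNAs were called higher in either, and when exchanged 1.44% were for day 19 against day 12. The difference of miR-99b between days 12 and 26 on Febit, not called, turned to -0.67 by title and -0.25 when exchanged. It was -0.16 with raw features after quantile normalization and -0.37 after quantile normalization of the VSN values. For RMA minus exchanged non-VSN values, the platform difference was called for 2 members at day 19 and 3 at day 26, and at day 12 turned to -0.065 for miR-99b and -0.16 for miR-125a-5p, neither called. The share of all tested miRNAs is not given for this platform difference or for the raw features after quantile normalization, so these member counts have no background beside them.

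With 1 array left out, the number of members called ranged from 1 to 3 at day 26 against day 12 on Affymetrix. On Febit it ranged from 0 to 3 at days 12 and 19 and from 2 to 4 at day 26 against day 0, from 0 to 2 at day 26 against day 12, and from 0 to 1 at day 19 against day 12. For the platform difference it ranged from 0 to 1 at days 19 and 26. The share of all tested miRNAs called with 1 array left out is not given, so these counts have no background beside them. Among values that were not called, the day 26 against day 12 differences on Affymetrix ranged from -0.42 to 0.0015 for miR-99b and from -0.60 to 0.50 for miR-125a-5p, and the platform differences from -0.47 to 0.29 for miR-99a and from -0.62 to 0.78 for miR-125a-5p at day 12 and from -0.25 to 0.050 for miR-99b at day 26.

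The letters a and b name cultures and pair nothing in the labels. The differences between a and b correlated between days with r from -0.03 to 0.35 on Affymetrix VSN and from -0.14 to 0.09 on Febit VSN, over 485 miRNAs. On Affymetrix RMA r ranged from -0.07 (days 0 and 19) to 0.53 (days 12 and 19). With the letter as a replicate block, 1 member was called on Affymetrix at day 19 against day 12 in place of 0, 3 on Febit at day 26 against day 0 in place of 5, and 1 for the platform difference at day 19 in place of 0. With 2 arrays per day, the SE of a member's difference was 0.57 to 0.79 on Febit and 0.43 to 0.60 on Affymetrix, which limits what could be called.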
